A study of Mus musculus with 5 samples.

Results

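This set of 6 genes, taken by name, holds Defb1, Wfdc15b, Wfdc2, Umod, Slpi and Wfdc21, which encode secreted proteins of urinary and mucosal defence. They were 6 of the 27998 genes listed in each library, and all 6 were found. They were chosen by earlier results of these data, namely that Defb1 and Wfdc15b were leading genes of distal tubule cells and were lower after transplant in proximal tubule cells, so levels by cell type and every value of the proximal cells are descriptions without a test. The libraries came from kidneys of C57BL/6j mice in which pristane, a hydrocarbon oil, had induced lupus-like disease. All 5 mice carried that induction. Mice treated with saline gave 2 libraries, and mice that received faecal microbiota of MRL/MpJ mice by transplantation (FMT) gave 3. The labels state no age or sex, they call the cells renal tubular epithelial cells although lymphocytes and neutrophils are present, and their titles begin with C or D in saline and with B in FMT libraries, so that a preparation batch that follows these codes cannot be told apart from the treatment.

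The urinary tract protects itself with proteins that the tubules and the lining of the outflow tract release into urine. Defb1 encodes beta-defensin 1, a cationic antimicrobial peptide of epithelia. Umod encodes uromodulin, the most abundant protein of normal urine, which is made in the thick ascending limb and binds fimbriated Escherichia coli. Wfdc2, Wfdc15b, Wfdc21 and Slpi encode small proteins with the whey acidic protein (WAP) domain, of which Slpi, the secretory leukocyte protease inhibitor, blocks neutrophil elastase.

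Each library held 15333445 to 45309178 UMIs (unique molecular identifiers, each standing for 1 captured RNA molecule), and 21708 cells were used. Cells were sorted into gates by transcripts of other genes: Slc12a3 for distal convoluted tubule (803 cells), Slc12a1 for thick limb (95), Atp6v1g3 for intercalated cells (749), Upk1b and Psca for urothelium (137), Slc34a1 and Miox for proximal tubule (11747), S100a8 for neutrophils (381), and B or T cell genes for lymphocytes (4980). Cells that reached several gates (776), no gate (2034) or the principal cell gate (6) were set apart. The other urothelial markers summed to 9213 to 10501 CPM (counts per 1000000 UMIs) in the urothelial gate and the other neutrophil markers to 110129 to 163819 CPM in the neutrophil gate. The intercalated gate held its own markers at 1401 to 2780 CPM, but also those of the distal tubule at 411 to 3973 CPM, of which Klk1 alone was 175 to 3660 CPM. The summed level of the other distal markers was 4570 to 9536 CPM in the distal gate and 8739 to 13711 CPM in the thick limb gate, where Klk1 alone was 7827 to 12036 CPM. Pvalb, another distal marker, was at 573 to 900 CPM in the distal gate and at 0 in the thick limb gate. The thick limb gate held only 6 cells in saline library 1 and 6 in FMT library 2, and these libraries are left out of its values. Levels below are CPM, a gene's UMIs per 1000000 UMIs of all the gate's cells in a library, and they are compared within a gene, not between genes.

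Defb1 was a gene of the distal convoluted tubule. Its level in the distal gate was 4448 and 3873 CPM in the saline libraries and 3878, 3979 and 3335 CPM in the FMT libraries, and 86.3% of its 23611 UMIs lay there. A Defb1 UMI was found in 92.4% to 98.5% of distal cells, against 0.66% to 9.59% of T cells, which are not known to make it. Thick limb and intercalated cells followed at 608 to 860 CPM (3 libraries) and 476 to 829 CPM (5 libraries), ranges that overlap. Within the intercalated gate, the cells with a UMI of Slc4a1 or Aqp6 (60 cells) stood at 1963 and 1053 CPM in saline and 1749, 1459 and 2348 CPM in FMT libraries, above the 271 to 819 CPM of cells with none of Slc4a1, Aqp6 and Slc26a4. The former numbered 3 to 25 a library, and the distal markers in this gate are given above, and their part in its Defb1 level was not tested. Slc4a1 encodes the anion exchanger of acid-secreting intercalated cells, and this split was made after the data had been seen.

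Wfdc15b was shared by the distal tubule and the thick limb. Its level was 3938 and 3411 CPM in saline and 3089, 3246 and 3605 CPM in FMT distal cells, and 3365, 1384 and 3784 CPM in the thick limb cells of saline library 2 and FMT libraries 1 and 3, so the gates overlap. The urothelium came next, in a narrow band of 283 to 364 CPM over 5 libraries, and the intercalated gate followed at 87.3 to 151 CPM. The intercalated gate also held distal markers, as given above, and their part in its Wfdc15b level was not tested. Urothelial cells were the deepest, with a median of 9808 to 19884 UMIs a cell, and after each cell was thinned to 1000 UMIs a Wfdc15b UMI was found in 14.3% to 23.1% of them, against 0% to 1.87% of T cells.

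Wfdc2 had the widest spread over epithelia. It stood at 4367 and 3119 CPM in saline and 3376, 4702 and 4145 CPM in FMT urothelium, at 2364 to 3448 CPM in the thick limb and at 723 to 1038 CPM in the distal gate. In the distal gate it was higher in the cells with at least 20 S100g UMIs per 10000 (1093 to 2383 CPM) than in the rest (697 to 871 CPM) in every library, whereas Wfdc15b was lower in those cells in every library (205 to 2712 against 3346 to 4119 CPM, over 7 to 38 cells a library high in S100g). S100g encodes a calcium-binding protein of the later distal tubule, and the split was made after the data had been seen. The distal gate held only 29.0% and 55.9% of the S100g UMIs of the kept cells in saline and 13.4%, 22.9% and 2.67% in FMT libraries. The part of S100g RNA from other cells in this split was not tested. The proximal gate stood far lower, at 79.8 to 206 CPM, but with its many cells it held 44.6% of all 30618 Wfdc2 UMIs, more than the 28.6% in the urothelium.

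Umod was highest in the thick limb, at 19545 CPM in saline library 2 and at 5837 and 13222 CPM in FMT libraries 1 and 3. The distal gate was second at 1849 to 5137 CPM, and because it had more cells it held 76.5% of the 25362 Umod UMIs, against 17.3% in the thick limb gate. A Umod UMI was found in 72.6% to 94.5% of distal cells, and the highest cell held 2.78% to 10.4% of a library's Umod UMIs in that gate. Slc12a1, the thick limb transporter, was at 0 to 3.37 CPM in the same cells, which the gate sets in part because cells reaching both gates were set apart. An antisense gene, Gm44588, overlaps Umod on the other strand, and the sources used here do not say whether the counting used strand.

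Slpi and Wfdc21 were genes of blood cells in these kidneys. Wfdc21 stood at 4956 and 3824 CPM in saline and 2029, 3646 and 4501 CPM in FMT neutrophils, where 91.5% of its 6939 UMIs lay. It had 0 UMIs in the thick limb gate, which allows up to 8.88 CPM over the gate, and 0 in the urothelium, which allows up to 1.41 CPM. Slpi stood at 2119 and 1796 CPM in saline and 4402, 3572 and 3351 CPM in FMT neutrophils, and at 0 to 47.4 CPM in the distal, thick limb, intercalated and urothelial gates. In the lymphocyte gate Slpi stood at 2061 and 2792 CPM in saline and 995, 470 and 940 CPM in FMT libraries, so that gate was above the neutrophils in saline library 2 and below them in the other libraries.

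**Figure D1:**
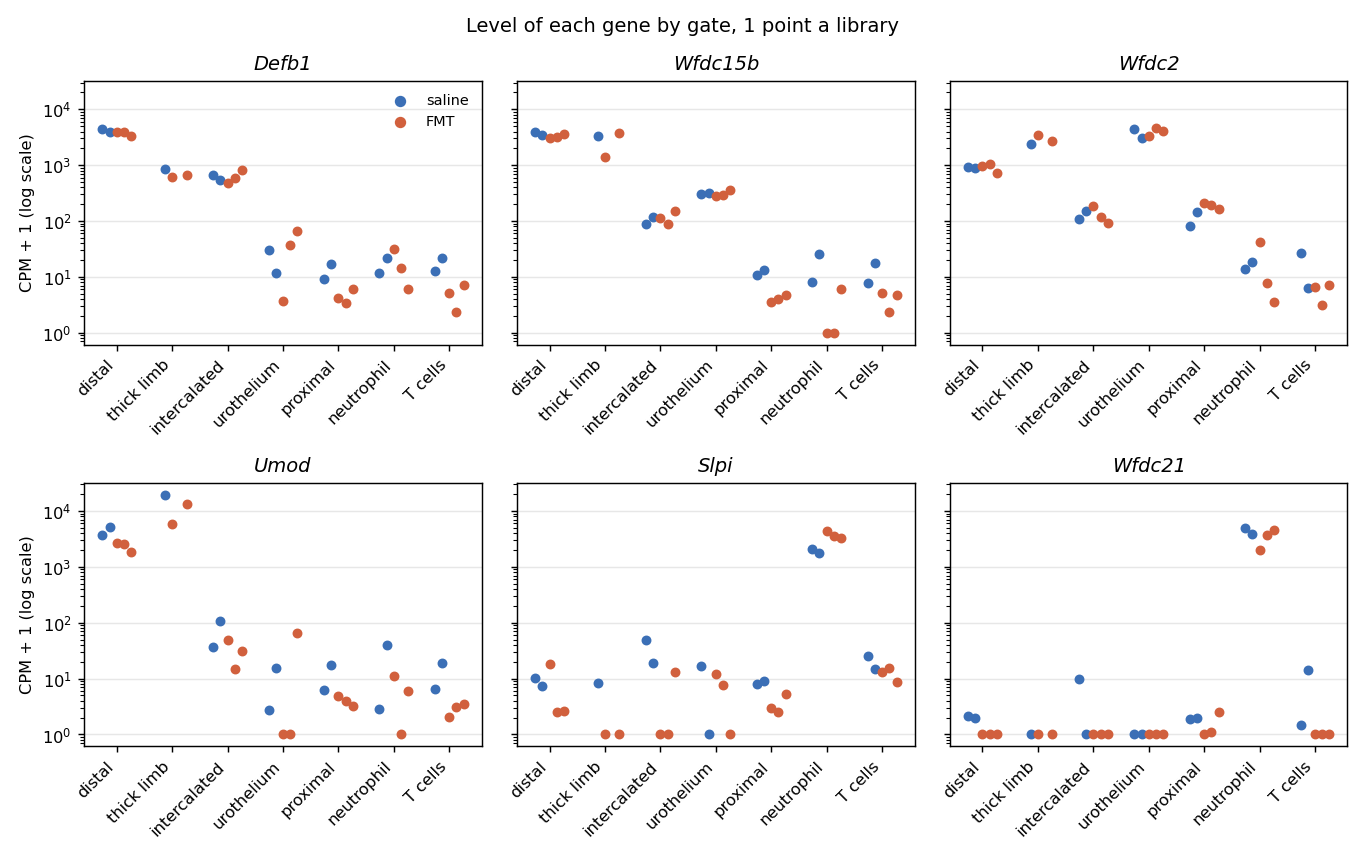
Level of each gene by gate as CPM plus 1 on a log axis, with 1 point for each library that had at least 10 cells in the gate, blue for saline and red for FMT. The lymphocyte gate is drawn by its T cells only. Among the gates drawn, Defb1 is highest in the distal gate (3335 to 4448 CPM), Umod in the thick limb (5837 to 19545 CPM), Wfdc2 in the urothelium and thick limb, and Slpi and Wfdc21 in neutrophils.

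Wfdc15b, Slpi and Wfdc2 lie on the same 354 kb of mouse chromosome 2 (build GRCm38, GENCODE M21), at chr2:164214454-164221660 on the minus strand, chr2:164354070-164389095 on the minus strand and chr2:164562413-164568510 on the plus strand. That stretch holds 17 protein-coding genes, these 3 among them. Wfdc15b was high in the distal tubule and thick limb, Slpi in blood cells, and Wfdc2 in the urothelium and thick limb. Umod lies at chr7:119462711-119479282 (minus strand), Defb1 at chr8:21776599-21795185 (plus strand) and Wfdc21 at chr11:83746940-83752642 (plus strand). All 6 are protein-coding genes. The 250 bases before the start that RefSeq gives are printed below (build GRCm38.p6, 5′ to 3′ on the gene's strand). They are given for the 3 genes of chromosome 2, because these differ in source cell, and for Umod. Matches to GTTAAT on either strand are in capitals. GTTAAT is the left part of the site bound by HNF1 factors of the nephron. The RefSeq start lies inside the GENCODE gene for Slpi, Wfdc2 and Umod, by 32588, 302 and 20 bases, and 3 bases before it for Wfdc15b. Defb1 and Wfdc21 are named only.
Wfdc15b, chr2:164221664-164221913: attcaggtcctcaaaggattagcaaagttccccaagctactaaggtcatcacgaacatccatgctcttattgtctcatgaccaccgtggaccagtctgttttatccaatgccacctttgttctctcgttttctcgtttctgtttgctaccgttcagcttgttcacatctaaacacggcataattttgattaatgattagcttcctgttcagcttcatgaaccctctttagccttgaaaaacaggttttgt
Slpi, chr2:164356508-164356757: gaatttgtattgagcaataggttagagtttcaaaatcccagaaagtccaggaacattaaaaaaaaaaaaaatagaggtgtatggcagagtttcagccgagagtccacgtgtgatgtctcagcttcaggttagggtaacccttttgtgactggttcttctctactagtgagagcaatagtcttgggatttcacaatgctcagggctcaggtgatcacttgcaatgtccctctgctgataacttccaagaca
Wfdc2, chr2:164562465-164562714: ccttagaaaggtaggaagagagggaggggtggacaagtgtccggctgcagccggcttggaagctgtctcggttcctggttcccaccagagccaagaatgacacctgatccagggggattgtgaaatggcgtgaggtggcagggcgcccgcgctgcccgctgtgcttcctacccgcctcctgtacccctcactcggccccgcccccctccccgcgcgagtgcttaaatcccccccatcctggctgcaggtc
Umod, chr7:119479263-119479512: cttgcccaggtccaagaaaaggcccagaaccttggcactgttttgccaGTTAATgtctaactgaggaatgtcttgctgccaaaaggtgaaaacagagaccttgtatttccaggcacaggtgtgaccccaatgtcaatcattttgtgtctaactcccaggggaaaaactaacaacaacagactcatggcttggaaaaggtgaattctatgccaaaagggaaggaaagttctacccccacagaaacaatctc
GTTAAT or its reverse complement ATTAAC was found in 1 of these 4 windows, that of Umod, and in 6.43% of the 32851 promoter windows of the same length in the table. Only exact matches were counted, and near matches and the full site were not searched for, so a window without capitals may still hold similar letters. A match of this length is a description of the letters, not of binding.

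The genes whose levels followed a member most closely were found over 33 profiles of a gate in a library, by Pearson's r of log2(CPM + 1) among 6114 genes. Profiles of the same library share its depth and free RNA, so r is given as a description. For Defb1 these were Hoxd10, Tspan1 and Ak1 (r = 0.95, 0.94 and 0.94), and for Wfdc15b they were Fam81a, Slc25a35 and Slc16a7 (0.95, 0.95 and 0.94). Wfdc2 was followed by Spint1, Tmprss2 and Il17rc (0.95, 0.93 and 0.93), of which Spint1 encodes a protease inhibitor and Tmprss2 a protease of epithelial surfaces. Umod was followed by Ppp1r1a, Atp4a and Sostdc1 (0.98, 0.95 and 0.94). Slpi was followed by Tmem71, Snx20 and Cd84 (r of 0.96 each), and Wfdc21 by the neutrophil genes Ly6g, Cxcr2 and Hk3 (r of 0.98 each). Between members, r was 0.85 for Defb1 and Umod and 0.75 for Slpi and Wfdc21.

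The Slpi of lymphocytes sat in very few cells. The lymphocyte gate held 77.2% of all 35811 Slpi UMIs, more than the 11.1% in neutrophils. Cells of that gate with at least 100 Jchain UMIs per 10000, where Jchain encodes the joining chain of secreted antibodies, numbered 21 and 21 in saline and 26, 21 and 15 in FMT libraries. They held 98.9% and 99.6% of the gate's Slpi UMIs in the saline libraries and 98.9%, 59.1% and 99.1% in the FMT libraries. The share was lower in FMT library 2, where a B cell outside this limit held 822 Slpi UMIs.

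Slpi among the Jchain-high cells was 47887 and 42852 CPM in saline and 25301, 5571 and 10139 CPM in FMT libraries, with every FMT library below both saline libraries. Single cells set much of this: the highest cell held 8122 Slpi UMIs in saline library 2, which was 24.2% of its own UMIs, and 4810 in FMT library 1. Without the highest cell of each library the levels were 34600 and 11648 CPM in saline and 3151, 4701 and 8068 CPM in FMT libraries. In saline library 2 the second highest cell held 1617 of the 10617 Slpi UMIs of the Jchain-high cells, after the 8122 of the highest. The level of that library without its highest cell rested largely on this second cell, and levels without both were not computed. With all cells, and with only the highest cell of each library left out, the summed level was higher in saline, over 15 to 26 cells a library. The count per cell was not: the median was 36 and 21 Slpi UMIs in saline and 13, 11 and 51 in FMT libraries, with FMT library 3 the highest. Cells with at least 20 Slpi UMIs made up 52.4% and 52.4% in saline and 42.3%, 47.6% and 66.7% in FMT libraries. The difference was not tested. Cells that reached several gates were set apart and are not in these values. They held 6.91% of all Slpi UMIs, with at most 912 in 1 cell. Their Slpi level went the other way, at a mean of 90.3 CPM in saline and 695 CPM in FMT libraries, without overlap. Wfdc21 had 0 UMIs in the Jchain-high cells, which allows up to 3.04 CPM.

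**Figure D2:**
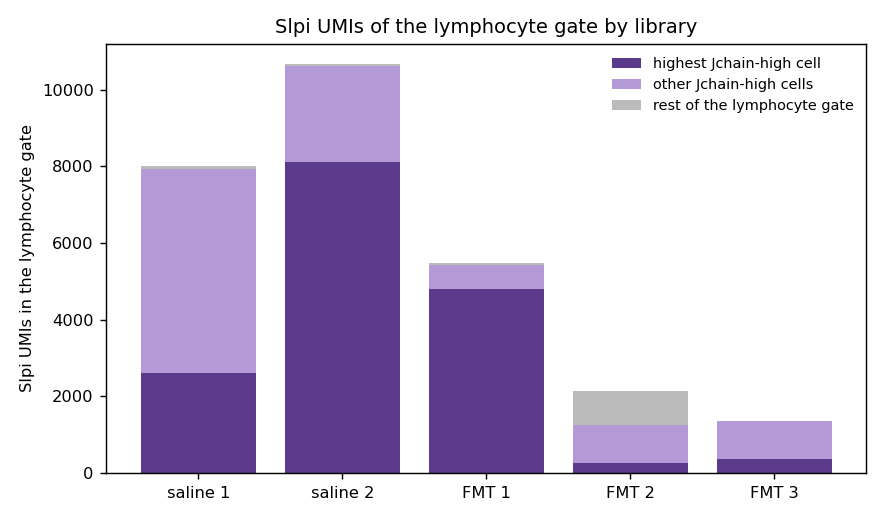
Slpi UMIs of the lymphocyte gate in each library, stacked as the highest Jchain-high cell, the other Jchain-high cells and the rest of the gate. In saline library 2 and FMT library 1 a single cell (8122 and 4810 UMIs) holds most of the bar, and in FMT library 2 the rest of the gate includes a cell with 822 UMIs.

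Free RNA was read from T cells (2703 cells), which have no known source of the tubular genes and, unlike the whole lymphocyte gate, little Slpi (7.57 to 24.8 CPM). Against that level the mean over libraries of the log2 ratio was 9.29 ± 1.48 for Defb1 and 9.48 ± 1.28 for Wfdc15b in the distal gate, 9.26 ± 1.33 for Wfdc2 in the urothelium and 7.74 ± 1.00 for Slpi in neutrophils (SD, n = 5 each), and 11.62 ± 1.35 for Umod in the thick limb (SD, n = 3). Wfdc21 had 0 UMIs in the T cells of all FMT libraries, and the 30 UMIs of saline library 2 came from 1 cell. The Wfdc2 level in saline library 1 T cells was also set by 1 cell, with 43 of 57 UMIs.

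In proximal cells, Defb1, Wfdc15b and Umod stood near the T cell level in most libraries. Defb1 was at 7.99 and 15.9 CPM in saline and 3.24, 2.43 and 5.08 CPM in FMT proximal cells, and at 11.96 and 21.03 CPM in saline and 4.21, 1.40 and 6.31 CPM in FMT T cells. Both cell types were lower in all FMT libraries than in both saline libraries. The proximal to T cell ratio had a median over libraries of 0.77 for Defb1 (range 0.67 to 1.74), 1.007 for Wfdc15b (0.61 to 2.19) and 0.97 for Umod (0.88 to 3.77), and of 0.81 (0.35 to 1.95) for Slc12a3, the gene of the distal gate itself. The highest ratio of each member, in FMT library 2 for Defb1 and Wfdc15b and in FMT library 1 for Umod, rested on 4 UMIs in T cells. A proximal cell of saline library 2 held 30 Umod UMIs, against at most 2 in any T cell.

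All 3 genes were lower in the proximal cells of every FMT library than in those of both saline libraries. The share of all genes that part the groups in this way is not given, so this is a description only. On the log2 scale the mean CPM of FMT over saline was -1.73 for Defb1, -1.81 for Wfdc15b, -1.83 for Umod and -1.77 for Slc12a3 in proximal cells. In T cells the same differences were -2.05, -1.93, -2.66 and -1.38. Among other distal markers, Pvalb had -1.99 in proximal and -1.34 in T cells. The differences were smaller for Calb1 (-1.02 and -0.95, the latter with overlapping groups) and for Tmem52b (-1.09 and -0.84, with overlapping groups). In T cells these values rested on few UMIs, 1 to 5 a library for Pvalb and 2 to 11 for Calb1. Without saline library 2 the value for Umod in proximal cells was -0.82. The number of proximal cells with at least 2 Defb1 UMIs was 6 and 15 in saline and 6, 0 and 1 in FMT libraries, and the share of distal cells among all cells was 2.61% (95% exact interval 2.19% to 3.09%) and 8.001% (7.08% to 8.998%) in saline and 3.30% (2.87% to 3.79%), 2.48% (2.06% to 2.97%) and 3.65% (2.99% to 4.42%) in FMT libraries. These intervals cover counting error only. The part of free RNA in the Defb1, Wfdc15b and Umod levels of proximal cells was not tested.

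Wfdc2 in proximal cells stood above the T cell level in every library. It was at 79.8 and 144 CPM in saline and 206, 193 and 161 CPM in FMT proximal cells, against 2.101 to 26.2 CPM in T cells, and the ratio had a median of 26.8 (range 3.04 to 91.6). All FMT libraries lay above both saline libraries, a separation whose share over all genes is not given. The log2 difference in mean CPM was 0.74, and it was 1.22 without saline library 2 and 0.37 without saline library 1. After thinning to 1000 UMIs a cell, a Wfdc2 UMI was found in 6.40% and 9.48% of saline and 15.9%, 13.9% and 11.46% of FMT proximal cells, and in 0% to 1.31% of T cells.

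The level of Wfdc2 was higher in proximal cells with Slc22a6 alone than in those with Slc5a2 alone in every library. Proximal cells with Slc22a6, the organic anion transporter of the middle segment, but not Slc5a2 held 114 and 248 CPM in saline and 278, 348 and 254 CPM in FMT libraries. Cells with Slc5a2, the glucose transporter of the first segment, but not Slc22a6 held 20.3 and 26.6 CPM in saline and 48.3, 43.1 and 36.5 CPM in FMT libraries. Cells with both genes or with neither held 62.9 to 154 CPM. The FMT libraries were above both saline libraries in each of these subsets. The first of them made up 37.9% and 37.9% of saline and 45.1%, 31.6% and 33.6% of FMT proximal cells, and no test is given for this gate.

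**Figure D3:**
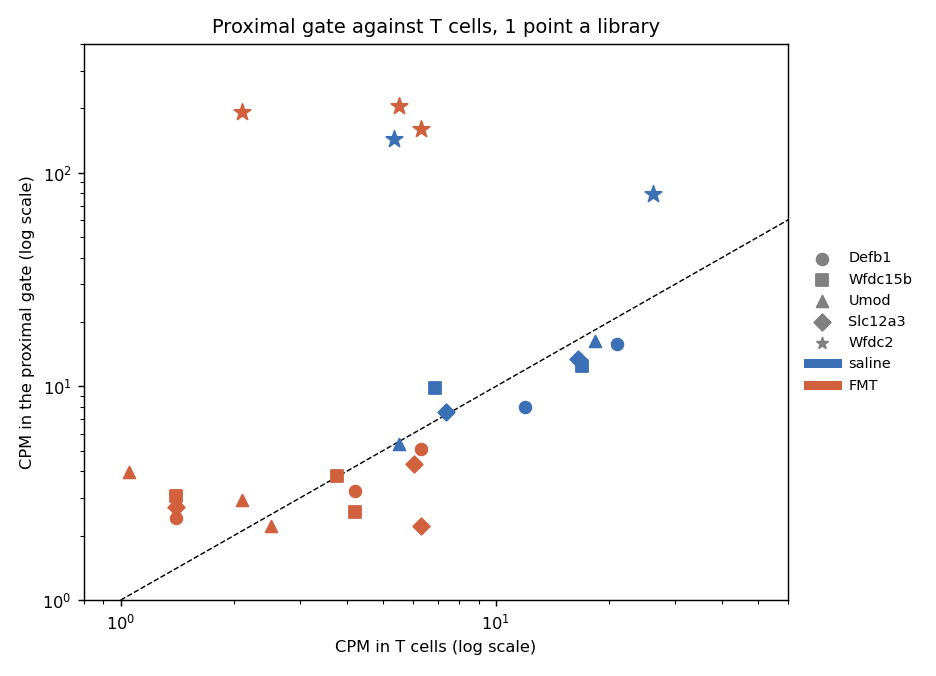
CPM in the proximal gate against CPM in T cells, both on log axes, for 4 genes of this set and the distal marker Slc12a3, with 1 point a library and the dashed line where both are equal. Defb1, Wfdc15b, Umod and Slc12a3 scatter about the line and FMT points lie lower than saline points, whereas Wfdc2 lies above the line in all 5 libraries.

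In the cells that hold these transcripts, FMT was compared with saline by edgeR's quasi-likelihood test on UMIs summed per library, with adjusted p-values over all genes tested in a gate. The test called 0 of 4 members in the distal gate, where 0.156% of genes were called, 0 of 4 in the thick limb gate (0%), 0 of 4 in the intercalated gate (0%), 0 of 3 in the urothelium (0%) and 0 of 2 in neutrophils (1.02%). Over all genes, 387, 100, 137, 144 and 444 genes of these gates, in the same order, had an unadjusted p below 0.05, and DESeq2 called 5, 0, 0, 0 and 24. The median log2 difference of the members tested in the distal gate was -0.14, against 0.01 over all genes.

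Defb1 and Wfdc15b differed little between groups in the distal gate. Defb1 had a mean of 4160 CPM ± 406 in saline (SD, n = 2) and 3731 ± 346 in FMT libraries (SD, n = 3), a log2 difference of -0.15 ± 0.20 (SE, edgeR adjusted p = 1.00). Wfdc15b had 3674 ± 373 and 3313 ± 265 CPM, with a log2 difference of -0.14 ± 0.20 (edgeR adjusted p = 1.00). In both the groups overlapped, and the differences between this gate and the proximal gate were not tested. Wfdc2 in the urothelium had 3743 ± 882 CPM in saline and 4074 ± 666 in FMT libraries, a log2 difference of 0.05 ± 0.27 (edgeR adjusted p = 1.00), with overlapping groups.

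Umod was the member with the largest separation in the distal gate. It stood at 3743 and 5137 CPM in saline and 2687, 2583 and 1849 CPM in FMT libraries. Every FMT library lay below both saline libraries, and the share of all genes that part in this way is not given. The log2 difference was -0.89 ± 0.21 (SE), with an edgeR p of 0.000536 and adjusted p of 0.159 over all genes, so it was not called. DESeq2 gave an adjusted p of 0.0369 and edgeR without a filter on low counts gave 0.00064, and these 2 settings called it, while over all alternatives run the adjusted p ran from 0.00064 to 0.9995. The estimate lay between -1.07 and -0.68 with any 1 library left out. In the thick limb gate, with 1 saline and 2 FMT libraries, the log2 difference was -1.10 ± 0.55 (edgeR adjusted p = 0.989), which assumes that the lone saline library varies like the others.

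Egf, listed here as a thick limb marker, was lower beside Umod in the distal gate, while the sum of the other markers overlapped between groups. The summed level of 6 thick limb markers other than Slc12a1 was 2718 and 2486 CPM in saline and 2201, 1745 and 1443 CPM in FMT libraries. Most of that was Egf, which encodes epidermal growth factor, at 2144 and 1772 CPM in saline and 1551, 1125 and 841 CPM in FMT libraries. Most Egf UMIs of the kept cells lay in the distal gate itself, 90.9% and 77.4% in saline and 60.1%, 74.7% and 62.2% in FMT libraries. The remaining 5 markers summed to 575 and 714 CPM in saline and 650, 621 and 602 CPM in FMT libraries. Among the cells with fewer than 20 S100g UMIs per 10000, Umod stood at 3883 and 5457 CPM in saline and 2915, 2919 and 1916 CPM in FMT libraries, again without overlap (log2 difference -0.84 ± 0.22, edgeR adjusted p = 0.171). The part of Egf, and of the cells that carry it, in the Umod difference was not tested.

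**Figure D4:**
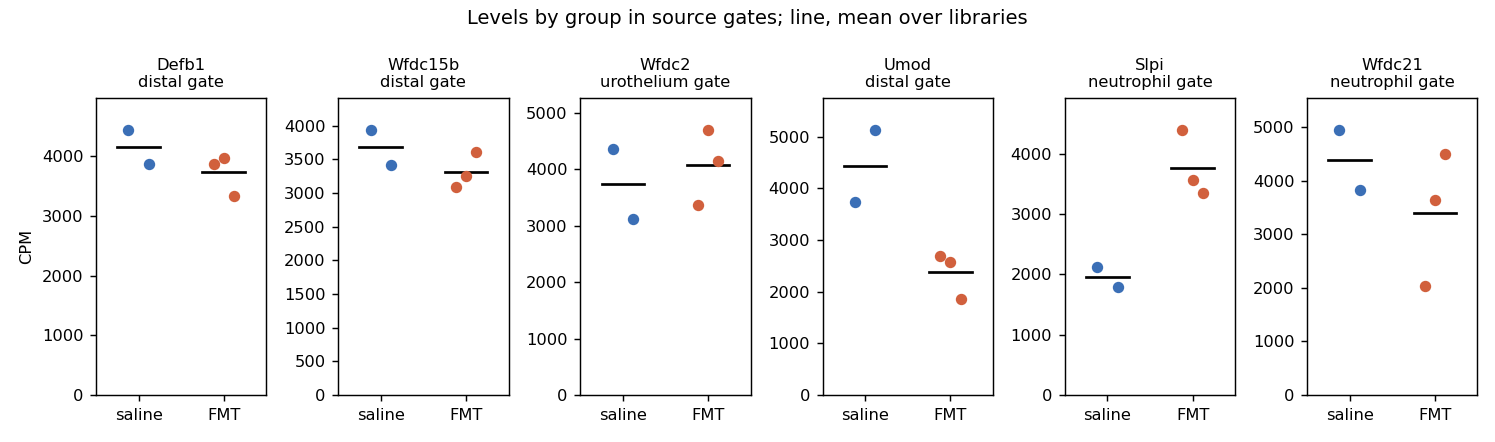
CPM by group in the distal gate (Defb1, Wfdc15b, Umod), the urothelium (Wfdc2) and the neutrophil gate (Slpi, Wfdc21), with 1 point a library and a line at the mean. The groups do not overlap for Umod, which is lower after FMT, and for Slpi, which is higher, and neither was called by edgeR. The share of all genes without overlap is not given.

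Slpi in the neutrophil gate was higher in all FMT libraries, at a mean of 3775 CPM ± 554 (SD, n = 3) against 1957 ± 228 in saline (SD, n = 2). The log2 difference was 0.78 ± 0.30 (SE, edgeR adjusted p = 0.246), and it was not called. Wfdc21 had a log2 difference of -0.49 ± 0.40 (edgeR adjusted p = 0.577), with overlapping groups.

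The mix of neutrophils differed along with Slpi. Camp and Ngp, which encode granule proteins of immature neutrophils, marked a subset with at least 100 UMIs of both together per 10000. This subset made up 31 of 124 neutrophils (25%, 95% exact interval 17.7% to 33.6%) and 24 of 63 (38.1%, 26.1% to 51.2%) in saline, and 0 of 36 (0% to 9.74%), 5 of 48 (10.4%, 3.47% to 22.7%) and 10 of 110 (9.09%, 4.45% to 16.1%) in FMT libraries. Slpi stood at 392 to 955 CPM in that subset and Wfdc21 at 5800 to 7939 CPM. The subset was shallow in saline library 2, with a median of 1185.5 UMIs a cell. The medians were 9167 in saline library 1 and 4325 and 10816 in FMT libraries 2 and 3. The intervals cover counting error only, and neither the difference in mix between groups nor the part of depth in it was tested.

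Among the neutrophils low in Camp and Ngp (311 cells), Slpi was at 4717 and 2951 CPM in saline and 4402, 4528 and 4361 CPM in FMT libraries, and the groups overlapped. The log2 difference was 0.28 ± 0.25 (SE, edgeR adjusted p = 0.783). Wfdc21 in these cells was at 2193 and 2199 CPM in saline and 2029, 2313 and 3052 CPM in FMT libraries, also with overlap, and the log2 difference was 0.25 (edgeR adjusted p = 0.825), of opposite sign to the whole gate. In each library with both subsets Slpi was higher in the low cells and Wfdc21 in the high cells. edgeR called 0 of the 2 members and 0 of 1916 genes among the low cells, with 165 genes at an unadjusted p below 0.05. DESeq2 was not run on them, and this subset was chosen after the data had been seen.

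**Figure D5:**
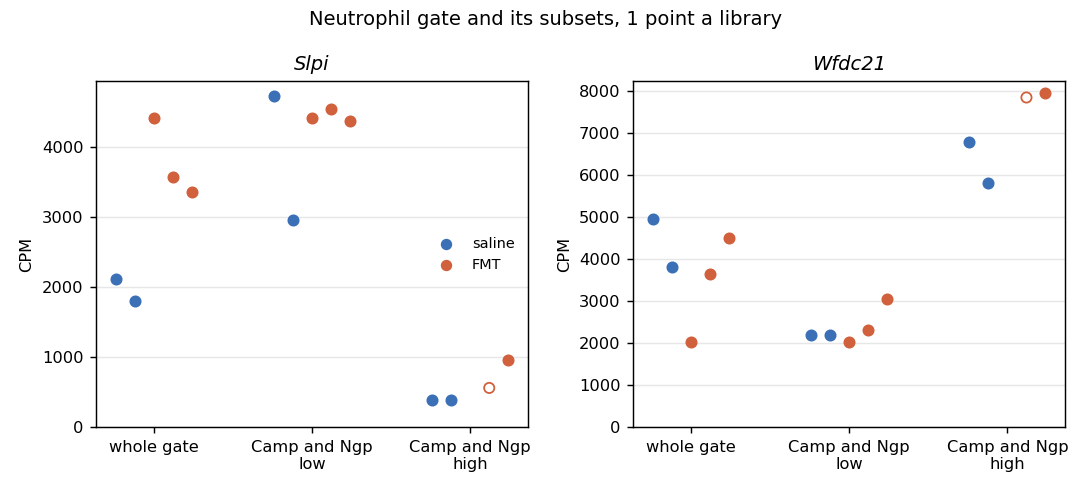
CPM of Slpi and Wfdc21 in all neutrophils and in those low and high in Camp and Ngp, with 1 point a library and an open point for a subset of under 10 cells. The groups part for Slpi over the whole gate but not in the Camp and Ngp low cells, and the genes have opposite orders between the subsets.

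Other genes of urinary and epithelial defence were read from a list of 81, which took in every other Wfdc and Defb gene. Of the 41 other Defb genes 31 had 0 UMIs in the kept cells, and of the 15 other Wfdc genes 7 had 0. Defb29 was the most abundant of the former with 9393 UMIs, highest in the proximal gate, and Wfdc17 of the latter with 11249 UMIs, highest in neutrophils. Of the list, 9, 6, 11, 5 and 13 genes could be tested in the distal, thick limb, intercalated, urothelial and neutrophil gates, and edgeR called 0 in each direction in every gate. In the distal gate the median log2 difference of the 9 was 0.11, against 0.01 over all genes. Klk1, the tissue kallikrein, stood at 1246 and 1539 CPM in saline and 4005, 4539 and 1294 CPM in FMT distal cells, with overlap (edgeR adjusted p = 0.337).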

How the data were processed

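Kidney single-cell libraries of 5 mice were analysed, described per the labels as 10x. The labels' protocol also names a bulk RNA kit and an mRNA kit, and this difference was not resolved. The deposited matrices hold raw UMI counts per gene and barcode. Cell Ranger 2.1.1 and mm10 are listed in the submitters' processing notes, while per the file headers the version was 4.0.0. Of 26237 barcodes, 22591 had at least 200 genes and under 50% mitochondrial UMIs, and 883 doublets were removed by Scrublet in scanpy 1.11.5. Libraries shared 3 to 12 barcodes, and a chi-square per gene of at least 67.2 parted every pair.

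A cell entered a gate when its marker UMIs reached a minimum count and a minimum per 10000 UMIs, and it reached no other gate. Minimums were 2 and 2, but 3 and 10 for proximal cells, 5 and 50 for neutrophils and 3 and 3 for principal cells (Aqp2). Counts were summed per library and gate, for libraries with at least 10 cells, and tested with edgeR 4.0.16 (quasi-likelihood, TMM, low count filter, Benjamini-Hochberg at 0.05) in R 4.3.3, with DESeq2 1.42.0 as an alternative. SE values are the fold change over the square root of F. Where groups are said not to overlap, the share of all genes that part in the same way is not given. Alternatives were other scaling, no filter, a replicate block, stricter and looser gates, doublets kept, a 25% mitochondrial limit, and each library left out. Subsets by S100g, by Slc4a1 or Aqp6 and by Camp and Ngp, and T cells as the free RNA level, were chosen after seeing the data. The Jchain limit and the Slc22a6 and Slc5a2 subsets are descriptions. Tested on simulated counts of the distal gate (8275 genes, 200 of them changed 2 log2 units), edgeR recovered 88% of changed genes and called 12 others. The changed genes were drawn from the more abundant genes, and all genes were given the same spread. Smaller differences, such as those of Umod and Slpi, were not simulated.

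The members and lists were chosen with earlier results of these data known. Named genes are the 6 members, listed defence genes that were called or are named with values, the 3 genes most alike to each member, and gate markers. Defb29, Wfdc17 and Klk1 were picked after their values were seen. Of the 27998 identifiers, 27645 were found in GENCODE M21. No other gene's transcript matched a member's over at least 60 bases at 90% identity (blastn 2.17.0+). The p-values rest on the spread among at most 5 mice. In the thick limb gate they rest on 1 saline and 2 FMT libraries, and in the Slc4a1 or Aqp6 cells on 2 saline and 1 FMT library.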

Additional observations from a re-analysis of the deposited data

Results flagged for a closer look

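Slpi differed between groups in opposite directions in different gates. In neutrophils all FMT libraries were above both saline libraries, with a log2 ratio of group mean CPM of 0.95, but among the neutrophils low in Camp and Ngp it was 0.21 and the groups overlapped. In the proximal, lymphocyte and intercalated gates all FMT libraries were below both saline libraries, with log2 ratios of -1.52, -1.60 and -3.03. The neutrophil value exceeded these by 2.47, 2.54 and 3.98. The difference was not tested in any of the 3 pairs. In the cells set apart because they reached several gates, all FMT libraries were also above both saline libraries, with a log2 ratio of 2.94. The lymphocyte value follows the few Jchain-high cells (-1.73), while the groups overlapped in T cells (-0.77) and in the other B cells (3.62, with the cell of 822 UMIs in FMT library 2). The intercalated value rests on 16, 8, 0, 0 and 4 UMIs in saline libraries 1 and 2 and FMT libraries 1 to 3, and the proximal level of 1.56 to 7.94 CPM lay below the T cell level in every library.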

How the results depend on the processing

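The count of members called was 0 in each gate, and it stayed at 0 in every leave-one-out fit (range 0 to 0). It was 1 in the distal gate with DESeq2 and without the low count filter (Umod in both), and 1 in the intercalated gate without the filter (Slpi, adjusted p = 0.0456). In the cells with Slc4a1 or Aqp6, chosen after seeing the data, it was also 1: Wfdc2 had a log2 difference of -6.71 (adjusted p = 0.0163), from 2 saline libraries against 1 FMT library with 0 UMIs, a size that depends on the prior count. Fitted with the replicate number as a block, 0 members were called in each of the 4 gates where this could be fitted, but the numbers are shared by 2 pairs only, whose deviations correlated between -0.24 and 0.34, and nothing says that they pair mice. The block could not be fitted in the thick limb gate, nor a library left out there. In proximal cells the log2 difference, with each library left out in turn, ran from 0.37 to 1.22 for Wfdc2, from -2.42 to -0.82 for Umod and from -4.03 to -0.24 for Wfdc21. The neutrophil Slpi level stood 1.26 above the whole lymphocyte gate on the log2 scale and 7.74 above T cells. None of the 26 changes of sign among 205 alternative fits of the members was called, and they touched 9 of 17 log2 differences. With a library left out, Defb1 ran from -0.22 to 0.12 in the intercalated gate and -0.054 to 1.40 in the urothelium, Wfdc15b from -0.28 to 0.0079 in the distal gate, -0.077 to 0.35 in the intercalated gate and -0.19 to 0.024 in the urothelium, and Wfdc2 from -0.11 to 0.14, -0.44 to 0.23 and -0.18 to 0.31 in these 3 gates. Other changes of sign were, in the intercalated gate, Defb1 at 0.21 with looser gates and 0.27 in Slc4a1 or Aqp6 cells, and, with the replicate block, Wfdc15b at -0.078 and Wfdc2 at 0.21. In the urothelium Defb1 was -0.32 with the block. In the distal gate Wfdc2 was -0.013 without the filter, -0.028 with doublets kept, -0.0086 at the 25% mitochondrial limit and -0.12 in S100g-low cells. Wfdc21 was 0.25 in the neutrophils low in Camp and Ngp. The cause was not tested.

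Counts over all genes moved more. The distal count of 13 was 5 with DESeq2, 107 without the filter, 3 with the block, 0 with looser gates and 5 to 45 with a library left out. The neutrophil count of 29 was 171 without the filter, 157 with looser gates, 54 with doublets kept and 10 to 102 with a library left out. From a count of 0, the intercalated gate reached 43 with the block, 171 without the filter and 31 without saline library 2, the thick limb gate 11 with other size factors and stricter gates, and the urothelium at most 30. In counts simulated at the size of the neutrophil gate (2694 genes, 164 of them changed 2 log2 units), edgeR recovered 75% of changed genes. Differences as small as that of Slpi in this gate were not simulated, nor were the thick limb and urothelial gates.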
